A study of Mus musculus with 8 samples.

Results

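The peaks described here are Ezh2 binding sites called in mouse embryonic stem cells that lack the histone methyltransferases G9a and GLP, at positions where wild-type cells had no called Ezh2 peak. Members were chosen by position on the measured peak lists: a peak of the knockout Ezh2 list on chromosomes 1 to 19 was kept when it shared no base with any peak of either wild-type Ezh2 library. Of the 6174 knockout Ezh2 peaks on these chromosomes, 1769 met the rule (28.7%), and 4405 overlapped a wild-type peak and are called shared knockout peaks below. The whole knockout list holds 6198 peaks. The share of 28.7% is fixed by the rule and is no finding. Without wild-type library 1, which has the most peaks, the rule would take 2932.

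All cells were TT2 embryonic stem cells, from a C57BL/6 female and CBA male by their labels, kept in serum and LIF. The knockout Ezh2 library (1 library, numbered 0) came from G9a-/-GLP-/- cells. The rescue G9a library (1 library, numbered 1) came from G9a-/-GLP-/- cells given wild-type G9a, which still lack GLP by their label. The wild-type groups were TT2 cells profiled for Ezh2 (2 libraries, numbered 0 and 1) and for G9a (1 library, numbered 1). Cells were fixed with formaldehyde, and the G9a samples also with DSG, a protein crosslinker. The labels do not say how many knockout or rescue clones were used, and peak lists cannot show whether G9a and GLP are absent. The source name of the knockout Ezh2 library gives the cell line alone, so its group rests on its title and description.

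Ezh2 is the enzyme of Polycomb repressive complex 2 (PRC2), which methylates histone H3 at lysine 27 (H3K27). In embryonic stem cells PRC2 is known for its broad domains at CpG-rich promoters of silent developmental genes. G9a and GLP act as a pair and methylate lysine 9 of histone H3 (H3K9), a mark of silenced chromatin. The study set out to learn how G9a and GLP bear on PRC2, and Ezh2 sites seen in their absence alone are the gain side of that question.

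The knockout-only peaks rest on 1 knockout library, so no test between conditions was possible and none of their features has a replicate check. The Ezh2 lists hold 6198 peaks in the knockout, 5425 in wild-type library 0 and 11766 in wild-type library 1. The G9a lists hold 83721 peaks in the rescue and 67318 in the wild type. Sequencing depth is unknown, as these lists give positions and scores and no reads. By the labels alone, libraries 0 and 1 of wild-type Ezh2 cannot be assigned to the same culture or to different ones. Each peak carries a score from the authors' peak caller, higher for stronger peaks. MACS, which the submitters name, writes such scores as minus 10 times the log10 of p, but the lists do not state the scale, and scores were compared mainly within a list. Lowest scores were 43.03 in the knockout list, 43.02 in wild-type library 0 and 30 in wild-type library 1. The 95% intervals below are exact binomial intervals for shares and order-statistic intervals for medians. They cover counting error over peaks, and neighbouring peaks are not independent. Positions are on mm9, 1-based. No gene is named at a peak and no sequence is printed, because no annotation or genome of that build was used.

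Peaks just inside and just outside the rule differed by a few bases. The members nearest to a wild-type peak had 1, 5 and 11 bases between them and it, and the shared peaks with the least overlap shared 3, 6 and 6 bases. Such edge cases were few. A distance of at most 100 bases was found for 14 members, and 25 shared peaks were overlapped by fewer than 100 bases. Most shared peaks were covered by wild-type peaks over their whole length (4186 of 4405).

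Knockout-only peaks were most dense on chromosomes 11 and 8. Chromosome 11 carried 254 of them (2.08 per Mb) and chromosome 8 carried 240 (1.82 per Mb). On the other 17 autosomes the density ran from 0.382 per Mb on chromosome 3 (61 peaks) to 0.897 per Mb on chromosome 19 (55 peaks), with a median of 0.570. Every one of these 17 chromosomes lay below both. Chromosomes 8 and 11 together held 494 knockout-only peaks, 27.9% of them (25.8 to 30.1), on 10.3% of the autosomal length. Their joint density of 1.95 per Mb, against 0.575 per Mb on the other 17, is a ratio of 3.39. The pair of chromosomes 8 and 11 was chosen with earlier results of these data known, so its shares and ratios are descriptions only.

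The rest of the knockout list was denser on these chromosomes too, but by less. Shared knockout peaks had 2.94 per Mb on chromosomes 8 and 11, against 1.65 per Mb on the other 17, a ratio of 1.78. On chromosome 11 alone they had 3.87 per Mb, while on chromosome 8 they had 2.08 per Mb, within the range of the other 17 (0.976 to 2.46). As a share of each chromosome's knockout peaks, knockout-only peaks made up 46.7% on chromosome 8 (240 of 514; 42.3 to 51.1) and 35.0% on chromosome 11 (254 of 726; 31.5 to 38.6). On the other 17 the pooled share was 25.8% (1275 of 4934; 24.6 to 27.1). By chromosome it ran from 19.4% on chromosome 13 to 35.6% on chromosome 16, so chromosome 8 had the highest share and chromosome 11 lay inside the range. The interval of chromosome 8 meets that of chromosome 16 (27.9 to 43.8), which has 53 knockout-only peaks.

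**Figure D1:**
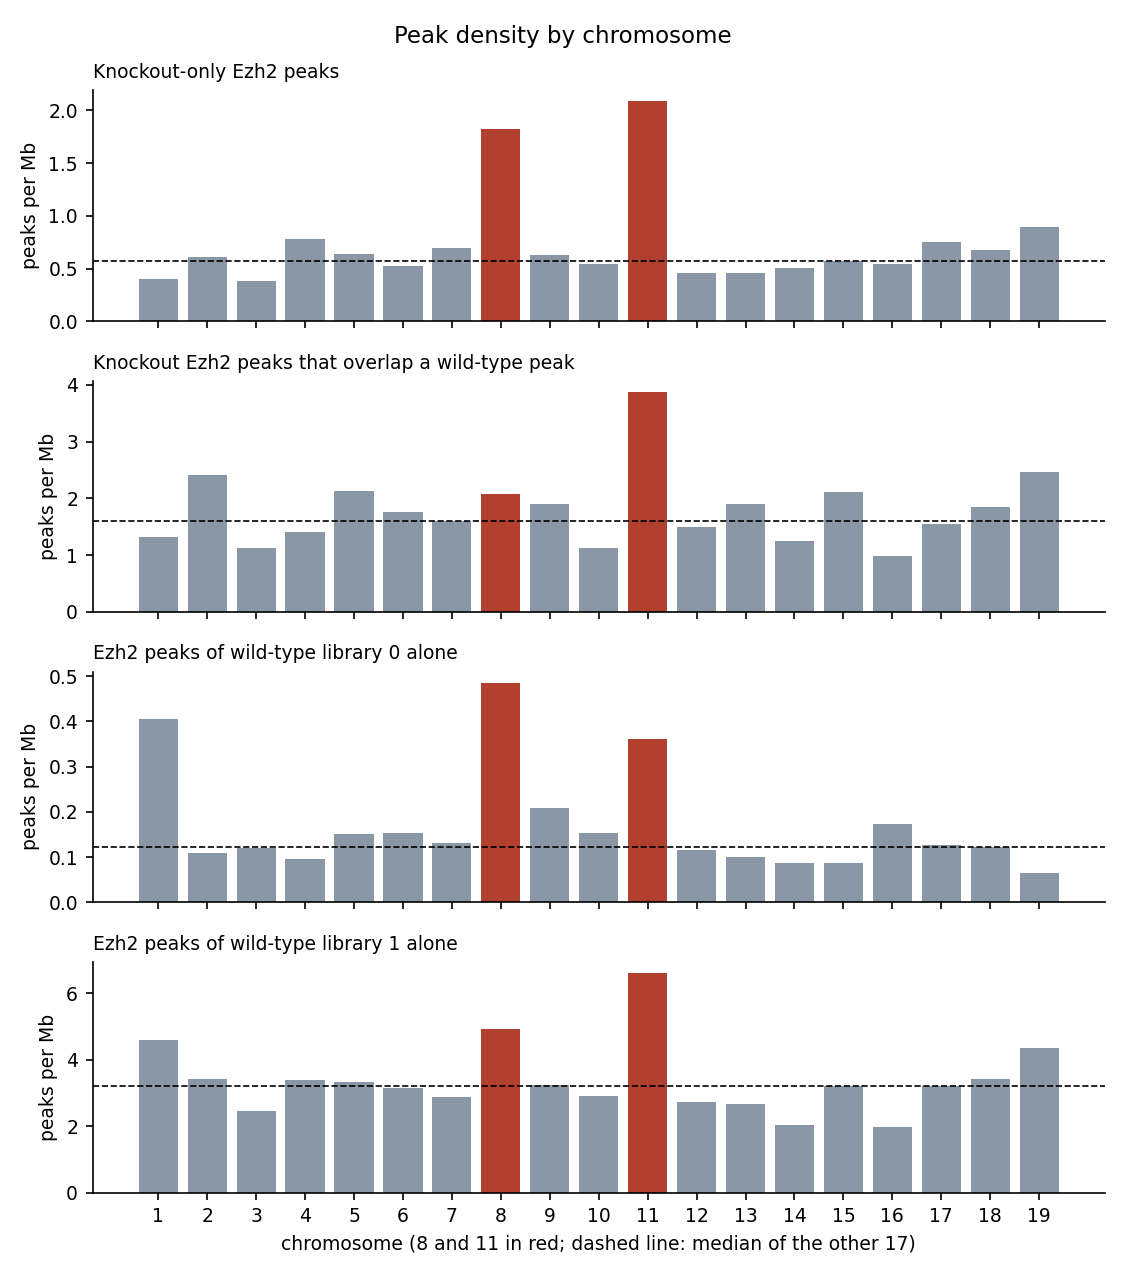
Peaks per Mb on each autosome for knockout-only Ezh2 peaks, shared knockout peaks and the peaks found in 1 wild-type Ezh2 library alone; chromosomes 8 and 11 are red, and the dashed line is the median of the other 17. Knockout-only peaks reach 1.82 and 2.08 per Mb on chromosomes 8 and 11, and peaks of wild-type library 0 alone are also dense on chromosome 1.

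Peaks found in a single wild-type library give the nearest comparison, because they too were called in 1 list and absent from both others. There were 444 such peaks in wild-type library 0 and 8427 in library 1. Library 0 alone showed 0.486 peaks per Mb on chromosome 8 and 0.361 on chromosome 11, against 0.151 on the other 17, a ratio of 2.81 over 444 peaks. Over all peaks of library 0 the ratio was 1.48, and chromosome 8 (2.41 per Mb) lay within the range of the other 17 (1.26 to 2.98). Library 1 alone gave 4.94 and 6.62 per Mb, against 3.14 on the other 17 (ratio 1.83). The ratio of 3.39 among knockout-only peaks was above both. The other 17 include chromosome 1, where library 0 alone was dense (0.406 per Mb). Without chromosome 1 the densities were 0.426 against 0.127 per Mb in library 0 alone, and 1.95 against 0.592 among knockout-only peaks. By these densities knockout-only peaks were not above library 0 alone. Chromosomes 8 and 11 held 24.3% of peaks of library 0 alone (20.4 to 28.6), which overlaps the knockout-only interval (25.8 to 30.1). The differences between these ratios were not tested.

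Chromosome 1, chosen after its values were seen, differed in direction between the single-list peaks of the knockout and of the wild type. Against the 16 autosomes other than 1, 8 and 11, the density of knockout-only peaks on chromosome 1 was 0.677-fold (0.401 against 0.592 per Mb), within the range of those 16 (0.382 to 0.897). The same ratio was 3.20 for peaks of wild-type library 0 alone (0.406 against 0.127 per Mb) and 1.53 for library 1 alone (4.59 against 3.00 per Mb). For chromosome 8 the ratios were 3.08 among knockout-only peaks, 3.84 in library 0 alone and 1.65 in library 1 alone. For chromosome 11 they were 3.52, 2.85 and 2.20 in the same lists. Single-list peaks were thus dense on 8 and 11 in all 3 Ezh2 libraries, and on chromosome 1 in the wild-type libraries but not in the knockout. Over whole lists the ratio for chromosome 1 was 0.756 in the knockout, 0.989 in wild-type library 0 and 1.34 in library 1, so library 0 as a whole was not dense there.

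The G9a lists varied over the same chromosomes. Rescue G9a peaks, from cells of knockout origin, were 0.288-fold as dense on chromosome 8, 1.75-fold on chromosome 11 and 0.321-fold on chromosome 1 as on the 16 others (10.3, 62.4 and 11.5 against 35.7 per Mb). For wild-type G9a peaks the ratios were 1.66, 1.94 and 1.76 (39.4, 46.1 and 41.7 against 23.8 per Mb). Knockout-only Ezh2 peaks and rescue G9a peaks were thus both dense on chromosome 11, and on chromosome 8 the Ezh2 peaks were dense where rescue G9a was sparse. On chromosome 1 rescue G9a lay below the range of the 16 others (29.0 to 51.7 per Mb), while knockout-only Ezh2 peaks lay within theirs. The DNA content of each chromosome was not measured in these lists, input libraries were not analysed here, and the part of either in these densities was not tested.

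Wild-type Ezh2 sites were also looked up in the knockout list by chromosome, a measure that does not use the knockout-only peaks. Of the library 0 peaks, 61.5% on chromosome 11 (279 of 454; 56.8 to 66.0) and 51.1% on chromosome 8 (162 of 317; 45.5 to 56.7) were found in the knockout. On chromosome 1 the share was 38.6% (155 of 402; 33.8 to 43.5), and on the 16 others 51.9% (2165 of 4169; 50.4 to 53.5). For library 0, chromosome 11 thus stood above the others and chromosome 1 below, while chromosome 8 did not differ from the 16 others beyond its interval. Library 1 peaks were found at 20.6% on chromosome 11 (18.3 to 23.1), 17.5% on chromosome 8 (15.0 to 20.3) and 10.7% on chromosome 1 (8.91 to 12.6). On the 16 others the share was 20.2% (19.3 to 21.0). Chromosome 1 was thus below in both libraries, and the higher share on chromosome 11 was seen for library 0 only.

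Within chromosomes 8 and 11 the density was raised in most blocks and not in 1 place alone. The autosomes were cut into 258 blocks of 10 Mb, of which 247 reached at least 5 Mb and were ranked. Blocks of chromosome 8 held a median of 1.70 knockout-only peaks per Mb (13 blocks of 5 to 43 peaks) and blocks of chromosome 11 a median of 1.80 (12 blocks of 8 to 49 peaks). The other 17 chromosomes had a median of 0.500 per Mb (222 blocks of 0 to 19 peaks). Of the 25 blocks of chromosomes 8 and 11, 23 exceeded that median, and 18 exceeded the 90th percentile of the other 222 blocks. Those not above the median were neighbouring blocks of chromosome 8, starting at 50 and 60 Mb, with 5 knockout-only peaks each (0.500 per Mb). None of the 25 was empty, whereas 11 of the 222 were. Shared knockout peaks differed by less between the same blocks, with medians of 2.50 per Mb in the 25 and 1.20 in the 222.

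**Figure D2:**
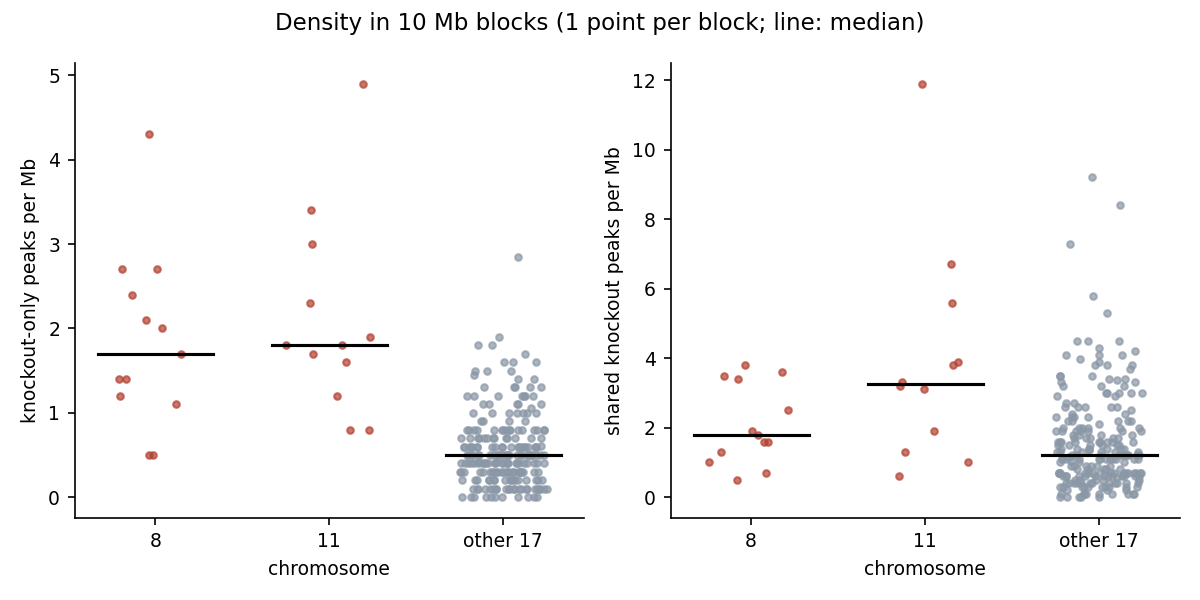
Density of knockout-only (left) and shared (right) knockout Ezh2 peaks in blocks of 10 Mb of at least 5 Mb size; each point is 1 block and the line is the median. Blocks of chromosomes 8 and 11 have medians of 1.70 and 1.80 knockout-only peaks per Mb, against 0.500 on the other 17. Of these 25 blocks, 4 lie above the range of the others.

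By count, the 10 fullest blocks all lay on chromosomes 8 and 11 and held 298 knockout-only peaks (16.8%). By density, 4 of the 25 blocks of these chromosomes exceeded the highest of the other 222. That was the 5.63 Mb block starting at 150 Mb on chromosome 4 (16 knockout-only peaks, 2.84 per Mb). First by count was the block starting at 110 Mb on chromosome 11, with 49 knockout-only and 67 shared peaks. The block starting at 120 Mb on chromosome 8 held 43 knockout-only and 36 shared peaks, so most of its knockout peaks had no wild-type counterpart (54.4%). Next were the blocks starting at 60 Mb (34 knockout-only, 38 shared) and 90 Mb (30 and 119) on chromosome 11 and, with 27 knockout-only peaks each, those at 90 Mb (35 shared) and 110 Mb (10 shared) on chromosome 8. In the block at 110 Mb on chromosome 8 knockout-only peaks made up 73.0% of the knockout peaks. The block at 90 Mb on chromosome 11 was rich mainly in shared peaks, and knockout-only peaks made up 20.1% of its total. Without the fullest block of each chromosome the density ratio was 2.99.

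Block by block, knockout-only peaks went with other Ezh2 peaks to a moderate degree. Their counts had a Spearman rho of 0.447 with shared knockout peaks over the 25 blocks of chromosomes 8 and 11, and of 0.561 over the 222 others. With the peaks of wild-type library 1 alone the values were 0.422 and 0.604. With library 0 alone, which has few peaks per block, they were 0.280 and 0.245. These describe blocks that share libraries and sequence content, and blocks are not replicates.

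The scores of knockout-only peaks lay close to the floor of their list. Their median was 47.34 (47.04 to 47.69), with 10% at or below 43.58 and 10% at or above 58.48. Shared knockout peaks had a median of 75.5 (73.8 to 77.8). A score of at least 60 was reached by 154 knockout-only peaks (8.71%), against 2845 shared peaks (64.6%), and a score of at least 100 by 10 (0.565%), against 1665 (37.8%). The same holds for peaks of wild-type library 0 alone, with a median of 49.4 and a highest score of 125.08. Peaks of library 1 alone reached further above their floor of 30. Their median was 43.9, with 10% at or above 142 and a highest score of 1010.18.

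The knockout list was then ranked by score and cut into deciles. The knockout-only share was 61.8% in the lowest decile and 61.9% in the next. It was 20.2% in decile 6, 1.46% in decile 8 and 0.648% in decile 9 (4 of 617). In the highest decile 0 of 617 peaks were knockout-only (upper bound of the exact interval 0.596%). Wild-type library 0 shows how often a wild-type peak of like rank is absent from library 1. In the lowest decile, 61.8% of knockout peaks (57.9 to 65.7) and 29.3% of library 0 peaks (25.5 to 33.4) had no library 1 peak. In decile 5 the values were 35.3% (31.6 to 39.2) in the knockout and 2.43% (1.30 to 4.13) in library 0. In the highest they were 0.648% and 0.749%. Intervals of the knockout and library 0 were apart in deciles 1 to 7 and overlapped in deciles 8 to 10. Scores at a given rank were lower in the knockout list (53.1 to 58.72 in its decile 5, against 67.96 to 86.84 in library 0). At nearer scores, from 51.67 to 57.81, library 0 had 16.3% absent from library 1 (decile 3; 13.3 to 19.7), still below the 35.3% in decile 5 of the knockout. This sets 1 knockout library against 1 wild-type library, so the difference between cell types and that between libraries cannot be told apart.

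**Figure D3:**
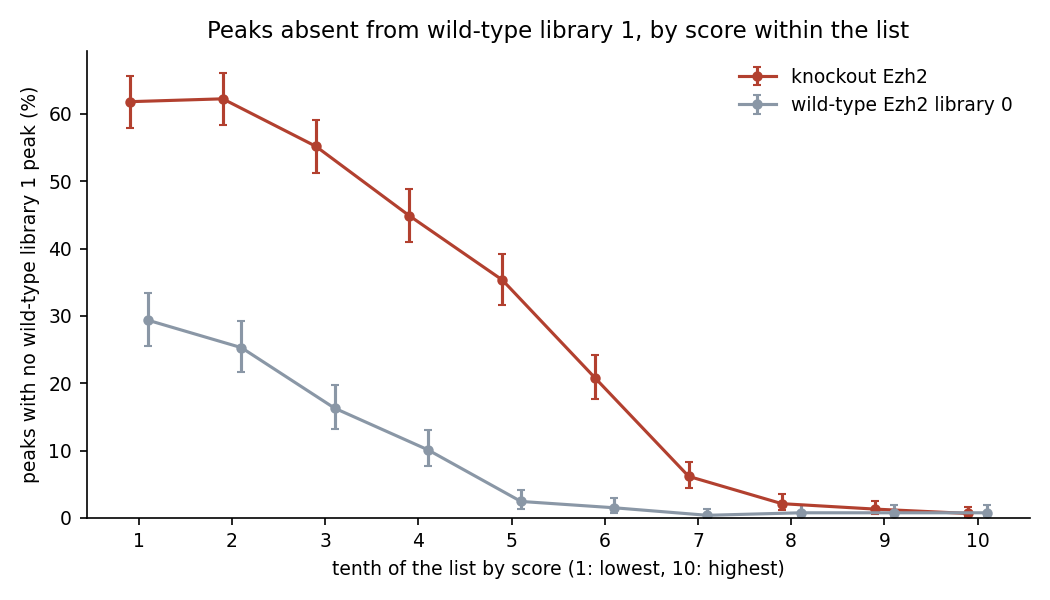
Share of Ezh2 peaks with no peak in wild-type library 1, by decile of score within each list, for the knockout list and for wild-type library 0; bars are 95% exact binomial intervals. In the lowest decile the share is 61.8% in the knockout and 29.3% in library 0, and both are below 1% in the highest.

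The lean towards chromosomes 8 and 11 was greatest among the stronger knockout-only peaks. Of the 154 with a score of at least 60, chromosomes 8 and 11 carried 66 (42.9%; 34.9 to 51.1), a density ratio of 6.56. Chromosome 11 had 36 and chromosome 8 had 30, and the next highest count was 11 on chromosome 2. In the weaker bands the share was 28.4% (score under 45), 25.2% (45 to 50) and 26.5% (50 to 60), with ratios of 3.47, 2.96 and 3.15. Shared knockout peaks in the same bands had ratios of 1.41, 1.26 and 1.35, and 2.05 at scores of at least 60. Chromosomes 8 and 11 made up 18.1% to 23.5% of all knockout peaks in every decile of the list. In the upper deciles these were nearly all shared peaks, as 4 of 617 were knockout-only in decile 9 and 0 of 617 in decile 10. The values by decile thus describe the whole knockout list and not the knockout-only peaks.

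Knockout-only peaks were short. Their median width was 293 bp (289 to 297), against 453 bp (444 to 465) for shared knockout peaks, and 286 bp for library 0 alone and 555 bp for library 1 alone. A width of at least 500 bp was reached by 34 of them (1.92%), against 1933 shared peaks (43.9%). Width was greater at higher score in both classes. Between scores of 43 and 45 the medians were 278 bp in knockout-only and 280 bp in shared peaks, and between 45 and 50 they were 297 and 301 bp. From 60 to 100 they were 378 bp (342 to 393) and 434 bp (427 to 444), so knockout-only peaks were narrower there. The classes were thus close in width at low score, where most knockout-only peaks lie, and apart at higher score.

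On chromosomes 8 and 11 knockout-only peaks were somewhat wider, with a median of 312 bp (306 to 322), against 282 bp (281 to 286) on the other 17. The difference was present in every band of score: 293 against 277 bp under 45, 306 against 294 bp from 45 to 50, 325 against 299 bp from 50 to 60, and 409 against 341.5 bp above. In none of the 4 bands did the intervals overlap. Shared knockout peaks showed the same direction (581.5 against 429 bp), as did peaks of library 1 alone (651 against 539 bp). Peaks of library 0 alone had 288 and 286 bp, which did not differ beyond their intervals. Median scores on chromosomes 8 and 11 and on the other 17 were 47.5 and 47.1.

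Few knockout-only peaks adjoined a wild-type Ezh2 peak. The median distance was 45.5 kb (40.0 to 50.5), with 10% within 1.68 kb and 10% beyond 260.0 kb. By band, 143 lay within 1 kb (8.08%), 303 between 1 and 10 kb (17.1%), 800 between 10 and 100 kb (45.2%) and 523 beyond 100 kb (29.6%). The nearest wild-type peak belonged to library 1 for 1674 of them (94.6%) and to library 0 for 95. Library 1 has more and wider peaks, and to library 0 the median distance was 168 kb. With the rule set on library 0 alone it was 90.8 kb, and with wild-type peaks held to the lowest score of the knockout list it was 68.5 kb. Peaks of library 0 alone lay a median of 55.2 kb (48.1 to 69.5) from the nearest peak of the other Ezh2 lists, and those of library 1 alone 57.0 kb.

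These distances were shorter than those of autosomal positions in general. All positions of a window as wide as the median member (293 bp) that touch no wild-type peak served as the yardstick, without correction for gaps in the assembly. Of the knockout-only peaks, 25.2% lay within 10 kb of a wild-type peak, against 6.08% of such positions, and 70.4% lay within 100 kb, against 39.4%. Within 1 kb the values were 8.08% and 0.701%. Chromosomes 8 and 11 have more wild-type peaks, and their members lay nearer: a median of 34.4 kb (25.8 to 40.1), against 51.5 kb (45.3 to 57.5) on the other 17. Within 100 kb were 79.8% of knockout-only peaks on chromosomes 8 and 11, where 62.0% of free positions lay that near. On the other 17 the values were 66.8% and 36.9%.

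**Figure D4:**
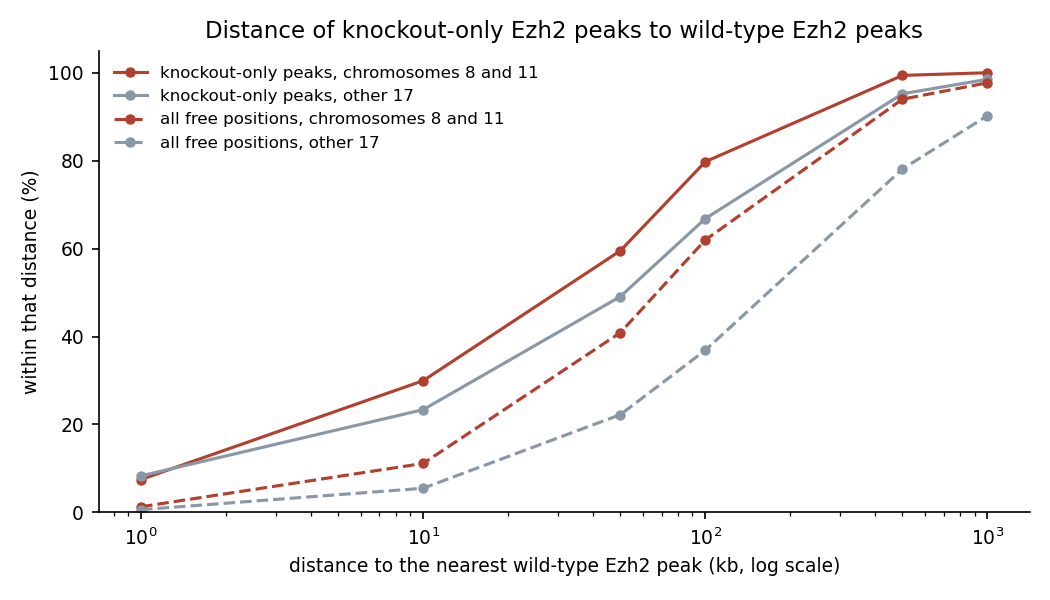
Cumulative share of knockout-only Ezh2 peaks (solid) within a given distance (log scale, kb) of the nearest wild-type Ezh2 peak, and the same share for all free positions of a 293 bp window (dashed), on chromosomes 8 and 11 and on the other 17. Both solid lines lie above their dashed lines at every distance plotted, with 70.4% of members and 39.4% of positions within 100 kb over all autosomes.

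Score differed little with distance. Median scores were 48.5 within 1 kb, 47.5 from 1 to 10 kb, 47.1 from 10 to 100 kb and 47.1 beyond. The share on chromosomes 8 and 11 was 25.9% (18.9 to 33.9) within 1 kb, 36.6% (31.2 to 42.3) from 1 to 10 kb, 30.8% (27.6 to 34.1) from 10 to 100 kb and 19.1% (15.8 to 22.8) beyond. The density ratio was above 1 in all 4 bands, at 3.05, 5.06, 3.89 and 2.07. Knockout-only peaks were thus dense on chromosomes 8 and 11 both beside wild-type sites and far from them. These ratios are per Mb of whole chromosome and do not allow for the free positions in each band. Within 1 kb of a wild-type peak lay 1.29% of free positions on chromosomes 8 and 11, against 0.634% on the other 17. Within 100 kb the values were 62.0% and 36.9%, so the ratios do not show in which band the excess was greatest.

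Knockout-only peaks also stood mostly alone. Of the 1769, 1641 had no other member within 10 kb, 52 pairs did, and 8 groups held 3 members each, with no larger group. Of these 8 groups 4 were on chromosome 11 (starting at 63746800, 68970481, 94347596 and 118995992) and 1 on chromosome 8 (starting at 123690681). The others were 2 on chromosome 17 and 1 on chromosome 18. Within 10 kb of a shared knockout peak lay 180 members (10.2%), and the median distance to one was 221 kb.

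The 10 highest-scoring knockout-only peaks show the range of settings. The first, at chr3:105261558-105262664, was 1107 bp wide with a score of 192.25, rank 798 of the list, and lay 4.54 kb from a library 1 peak. The second, at chr17:16286852-16287264, had a score of 178.58 and lay 201 kb from the nearest wild-type peak. The peak at chr11:95063110-95063879 (score 163.28) lay 19.8 kb away. The peak at chr4:118221111-118221391 (score 142.78) had 43 bases between it and a library 1 peak, and the peak at chr8:107802707-107803620 (130.02) had 86.

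The peak at chr1:81372019-81372333 (score 111.67) was the most isolated of the 10, at 529 kb. Those at chr10:12408587-12409070 (106.63) and chr10:114889525-114890212 (103.38) lay 180 kb and 6.43 kb away. The last were at chr15:76008966-76009353 (104.20), with 357 bases between, and at chr8:125209140-125209851 (101.29), 5.22 kb away. Thus 5 of the strongest 10 lay within 5.22 kb of a wild-type site and 3 lay over 100 kb from one.

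Further members of chromosomes 8 and 11 were weaker. On chromosome 8 the next by score lay at chr8:106733942-106734569 (93.27), at chr8:127601375-127602092 (76.96) and at chr8:15015318-15015738 (76.78). On chromosome 11 they lay at chr11:98460095-98460868 (86.80), at chr11:63746800-63747433 (83.93), at chr11:118437979-118438471 (81.79) and at chr11:119005728-119006257 (79.79). These 7 peaks were 421 to 774 bp wide, and the nearest wild-type peaks were 1.89 to 47.7 kb away.

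The 3 widest members formed a set at the very start of chromosome 11. They were chr11:3001090-3002489 (1400 bp, score 45.99), chr11:3034286-3036238 (1953 bp, 75.60) and chr11:3049431-3051817 (2387 bp, 47.63), next to the unassembled centromeric end. They are the only knockout peaks before 3.1 Mb on this chromosome and cover 5740 bp. Wild-type library 0 had 1 peak there, covering 5955 bp with a score of 43.08, and library 1 had 1 of 357 bp. The lists of G9a had 1 peak (rescue) and 5 peaks (wild type) in the same stretch. At 1107 bp the fourth widest member was the peak of chromosome 3 above.

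The members farthest from wild-type sites were weak. They lay at chr4:52177878-52178225 (score 50.89), at chr5:60421557-60421876 (46.42) and at chr3:22132215-22132443 (50.04), with 2319, 2297 and 2077 kb to the nearest wild-type Ezh2 peak. The nearest members, with 1, 5 and 11 bases between, were at chr17:45870523-45870763 (48.31), at chr5:120293670-120293939 (43.26) and at chr14:56402714-56403012 (57.03). All 3 adjoining peaks were of library 1.

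Few knockout Ezh2 peaks coincided with G9a, whether knockout-only or shared. Rescue G9a peaks overlapped 48 knockout-only peaks (2.71%; 2.01 to 3.58), against 5.36% of all knockout Ezh2 peaks and 6.42% (283 of 4405; 5.72 to 7.19) of shared ones. Positions of a window of the members' median width touched a rescue G9a peak in 2.82% of cases, which lies within the interval of the knockout-only peaks. Rescue G9a was found at 3.60% of peaks of library 0 alone (16 of 444; 2.07 to 5.79) and at 15.3% of peaks of library 1 alone.

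A wild-type G9a peak overlapped 92 of the 1769 (5.20%; 4.21 to 6.34), against 5.33% of all knockout Ezh2 peaks and 5.38% (237 of 4405; 4.73 to 6.09) of shared ones. Knockout-only and shared peaks therefore did not differ in wild-type G9a beyond their intervals. For positions in general the value was 2.91%. Peaks of library 0 alone had one in 6.31% of cases (28 of 444; 4.23 to 8.99) and peaks of library 1 alone in 13.7% (1158 of 8427; 13.0 to 14.5). Both G9a lists had a peak at 13 members (0.735%), against 1.55% of all knockout Ezh2 peaks, while 35 had a rescue G9a peak alone, 79 a wild-type G9a peak alone and 1642 neither. Strong G9a peaks, with scores of at least 100, overlapped 0.226% of members in the rescue list and 0.452% in the wild-type list. A rescue G9a peak lay on or within 1 kb of 9.67% of members, and a wild-type G9a peak of 12.8%. The shares at these other settings were taken for members only. They do not show whether members differ from other Ezh2 peaks or from positions in general.

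**Figure D5:**
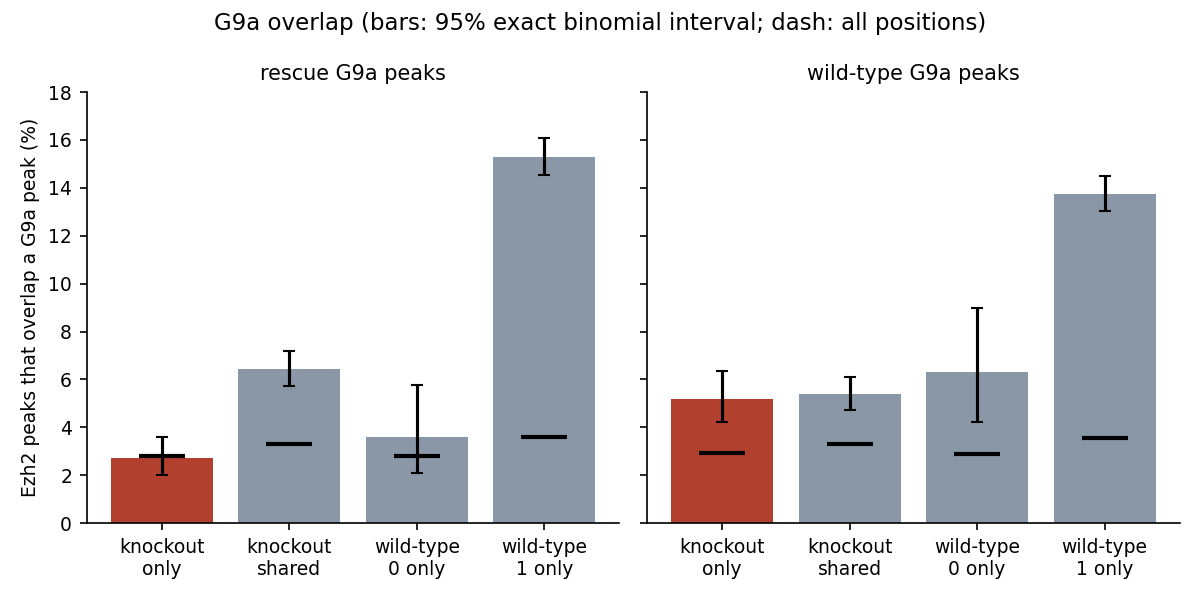
Share of Ezh2 peaks that overlap a rescue (left) or wild-type (right) G9a peak, for knockout-only, shared knockout, library 0-only and library 1-only peaks; bars carry 95% exact binomial intervals, and the dash is the share of all autosomal positions of a window of the class's median width. Knockout-only peaks are at 2.71% and 5.20%, and library 1-only peaks at 15.3% and 13.7%.

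The share of rescue G9a was lower at knockout-only than at shared peaks in each band of score below 100. Between scores of 43 and 45 it was 2.35% (11 of 468) in knockout-only and 6.41% (18 of 281) in shared peaks, and between 45 and 50 it was 2.70% (19 of 705) and 8.39% (46 of 548). From 50 to 60 it was 2.94% and 7.66%, and from 60 to 100 it was 3.47% (5 of 144) and 5.93% (70 of 1180). At scores of at least 100 it was 0 of 10 knockout-only peaks, too few to compare, and 5.59% of shared ones. Wild-type G9a had no such constant direction. Below 60 the values were 4.91% and 4.98%, then 4.96% and 6.20%, then 5.20% and 7.80%. From 60 to 100 the knockout-only share was the higher one, at 6.94% (10 of 144) against 59 of 1180, and at 100 or more it was 1 of 10 against 4.38%. These shares move with the rule. Without library 1 in the rule, rescue G9a peaks were at 5.05% of 2932 knockout-only peaks and wild-type G9a peaks at 6.58%. Both G9a libraries are numbered 1, like wild-type Ezh2 library 1, and the knockout Ezh2 library is numbered 0. What these numbers stand for is unknown here, and their part in the G9a shares was not tested.

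By chromosome, rescue G9a was found at 3.54% of knockout-only peaks on chromosome 11 (9 of 254), 1.25% on chromosome 8 (3 of 240) and 2.82% on the other 17 (36 of 1275). For positions in general these values were 6.57%, 0.937% and 2.70%. On chromosome 11 the rescue value lay below that of positions in general, within its interval (1.63 to 6.62). Wild-type G9a was found at 8.66% of knockout-only peaks on chromosome 11 (22 of 254), 6.67% on chromosome 8 (16 of 240) and 4.24% on the other 17 (54 of 1275). For positions in general the values were 6.55%, 5.03% and 2.57%, and the wild-type G9a list itself was denser on these chromosomes. Members with a rescue G9a peak had a median distance of 20.5 kb (4.67 to 42.5) from wild-type Ezh2 peaks, against 46.9 kb (40.3 to 51.4) without, and these intervals overlap. Members with and without a wild-type G9a peak had median scores of 47.6 and 47.3 and median distances of 45.0 and 45.5 kb from wild-type Ezh2.

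The strongest members with wild-type G9a began with the top peak of chromosome 3, whose G9a peak was weak (score 25.38 on a floor of 20). The next were at chr10:66815531-66816002 (Ezh2 score 75.85, G9a score 25.10), at chr11:58591729-58592552 (75.28 and 107.17) and at chr2:181228528-181228822 (66.15 and 20.95). The fifth was at chr11:99847379-99848090 (65.77 and 27.58). None of these 5 had a rescue G9a peak. The strongest with both G9a lists were at chr11:83242718-83243138 (Ezh2 score 61.10), at chr1:12634650-12634977 (61.05) and at chr11:119401186-119401770 (57.51). Their rescue G9a scores were 25.77, 43.62 and 24.05, and their wild-type G9a scores 27.38, 49.25 and 22.27.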

How the data were processed

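Per the submitters' processing notes, Bowtie 0.12.7, MACS 1.4 and mm9 were used, and per the series' design text the pooled wild-type inputs were the control. The sources used here do not give the threshold, or say if this control also served the G9a-/-GLP-/- samples. Each line of a deposited list is 1 peak, with its position and the authors' score. Groups follow the titles. Of 8 libraries, 5 have a list used here, and 3 inputs were not analysed here.

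Overlap means at least 1 bp shared. Adjoining peaks count as 1 base apart. Blocks were assigned by peak midpoint. Named peaks are the 10 highest-scoring, the 5 highest on each of chromosomes 8 and 11, the 3 widest, farthest and nearest, the 5 highest with wild-type G9a and the 3 with both G9a lists. Members, lists, rules and the pair of chromosomes 8 and 11 were chosen with earlier results of these data known. Interval functions were tested on simulated data, and the member count was checked with bedtools 2.31.1. Python 3.11.15, numpy 2.4.6, pandas 2.3.3, scipy 1.17.1 and matplotlib 3.10.9 were used, with mm9 lengths from GenomeInfoDb 1.38.1.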

Additional observations from a re-analysis of the deposited data

Results flagged for a closer look

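Chromosome Y lies outside the rule, and the knockout Ezh2 list had 3 peaks on it, against 0 in wild-type library 0 and 1 in library 1. All 3 overlapped no wild-type peak. On chromosome X the knockout list had 21 peaks, of which 4 overlapped no wild-type peak, against 83 and 172 peaks in wild-type libraries 0 and 1.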

How the results depend on the processing

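Knockout peaks with a score of at least 50 gave 596 knockout-only peaks, a density ratio of 3.88 for chromosomes 8 and 11 over the others, a median width of 320 bp and a median score of 54.8. At 60 or more these were 154, 6.56, 383 bp and 65.1, with a median distance of 32.0 kb and wild-type G9a at 7.14%. Counting a gap of up to 1 kb as overlap moved the median distance to 53.9 kb, and holding wild-type peaks to the knockout list's lowest score moved it to 68.5 kb. Without the fullest block of chromosomes 8 and 11 the ratio was 2.99. G9a peaks with scores of at least 100 gave 0.226% (rescue) and 0.452% (wild type), and a gap of up to 1 kb to G9a gave 9.67% and 12.8%. These G9a shares are of members only, with no value for other Ezh2 peaks beside them. Leaving out wild-type Ezh2 library 0 or 1 gave 1793 and 2932 knockout-only peaks, ratios of 3.34 and 2.90, distances of 50.0 and 90.8 kb, widths of 294 and 306 bp, scores of 47.35 and 49.15, rescue G9a at 2.68% and 5.05%, and wild-type G9a at 5.13% and 6.58%. The density ratio was above 1 in all 9 alternatives tried for it. A higher minimum score raises scores and lowers counts by construction; the cause of the other shifts was not tested. No paired analysis was possible because the knockout has 1 library and no result comes from a test.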
